A study of Mus musculus with 17 samples.

Results

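Myc and 49 genes that build ribosomes were followed in macrophages and osteoclast precursors with and without the deubiquitinase Bap1. The 50 genes were taken by name from 41388 genes in the count tables, and all 50 were found and passed the filter on low counts in every comparison. RNA was sequenced from 17 mouse cultures. Bone marrow macrophages (BMM) received M-CSF, with 3 libraries of Bap1flox and 3 of Bap1LysM. Osteoclast precursors (preOC, labelled OC) received RANKL at 100 ng/ml for 24 h, with 6 libraries of Bap1flox and 5 of Bap1LysM. The study's methods give M-CSF together with RANKL to osteoclast cultures.

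Both genotypes carry loxP-flanked Bap1. In Bap1LysM the Cre recombinase is driven from the LysM (Lyz2) locus and deletes Bap1 in myeloid cells, and Bap1flox controls have no Cre. The preOC cultures came from mice of 20 weeks, and the ages behind the BMM libraries were not given in the sources used here. The study describes its preOC libraries as biologically independent samples. No such statement was found for the BMM libraries, so p-values that use them measure the spread between these libraries, which may be technical. Replicates 1 to 3 and 4 to 6 were deposited under names of different form and were treated as a pair of library sets, with BMMs only among replicates 1 to 3. Bap1LysM preOC libraries exist for numbers 1, 2, 4, 5 and 6.

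Myc is a transcription factor that pairs with Max on E-box sequences and raises the output of genes for growth. Ribosomes are assembled in the nucleolus, where RNA polymerase I makes the precursor rRNA, small nucleolar ribonucleoproteins (snoRNPs) modify it, and assembly factors fold and cut it into the small and large subunits. M-CSF sustains the growth of bone marrow macrophages, and RANKL turns them into osteoclasts. The 50 genes were ordered here by these roles, as Myc itself, 7 genes of RNA polymerase I transcription, 9 of the snoRNPs, 5 nucleolar proteins that act at several steps, 12 small subunit factors and 16 large subunit factors.

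The canonical Myc E-box, CACGTG, reads the same on both strands. It was searched in windows of 300 bases, from 250 before to 50 after each start site in the RefSeq promoters of GRCm38.p6. Of the 50 genes 43 had a promoter there, and 9 of them (20.93%) held the motif against 8.09% of the 27025 genes with a promoter. The motif lay after the start site in 7 of these 9, within its first 50 bases. Rrp12, Fbl, Rrs1, Tcof1, Npm1, Myc and Bop1 had no entry. The E-box and its flanks are shown for the 4 holders with the largest called change, as 30 bases on the strand of the gene with the motif in capitals. The motif began at base 35 after the start of Grwd1 (minus strand, chr7:45830740-45830769), base 25 after that of Tsr1 (plus strand, chr11:74898092-74898121), base 60 before that of Nop2 (plus strand, chr6:125131811-125131840) and base 41 after that of Mybbp1a (plus strand, chr11:72441347-72441376).
Grwd1: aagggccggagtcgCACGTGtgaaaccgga
Tsr1: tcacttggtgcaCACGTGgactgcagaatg
Nop2: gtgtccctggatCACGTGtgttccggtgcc
Mybbp1a: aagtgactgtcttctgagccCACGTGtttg
The other 5 holders were Wdr43, Utp20, Ltv1, Rrn3 with 2 copies, and Pes1. A match in this window is a description and not a binding site.

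Library totals ranged from 37967542 to 61369441 counts. Lyz2, which the Cre insertion disrupts, served as a check of the labels. The study's methods give Bap1LysM mice a single Cre allele, which leaves an intact Lyz2 allele. Lyz2 was at 0.15% to 0.44% of the Bap1flox mean in 6 of 8 libraries labelled Bap1LysM, below what an intact allele would give, and at 42.8% in Bap1LysM BMM 1 and 75.1% in Bap1LysM preOC 1. The libraries numbered 1 thus stand apart from the other 6, and Lyz2 does not settle which of them match the stated genotype, so the counts and medians of the 50 genes in the main comparisons of genotype and RANKL were also computed without these libraries. Bap1 itself was at 64.3% to 101% of the Bap1flox mean in Bap1LysM preOCs and at 89.8% to 92.6% in BMMs. These counts sum all exons of the gene, including those outside a deleted stretch. The osteoclast markers summed to 231 to 269 CPM (counts scaled to the library total) in Bap1flox BMMs and to 7177 to 14363 CPM in Bap1flox preOCs, and to 239 to 352 and 5917 to 17563 CPM in Bap1LysM. The macrophage markers summed to 7756 to 9425 CPM in Bap1flox BMMs and to 3853 to 4421 CPM in Bap1flox preOCs, and to 7337 to 8389 and 3899 to 5233 CPM in Bap1LysM. With RANKL 6 of these 6 markers were called lower in Bap1flox (median -1.77) and 5 of 6 in Bap1LysM (median -1.34), and their part in the RANKL responses was not tested.

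Per length, in RPKM (CPM per kilobase of gene), Npm1 had the highest level of the 50 genes in all 4 groups. Its median was 92.8 RPKM in Bap1flox BMMs and 225 RPKM in Bap1flox preOCs. Npm1 encodes nucleophosmin, an abundant nucleolar chaperone. In Bap1flox preOCs the snoRNP core proteins Nhp2 (median 121 RPKM) and Fbl (111 RPKM), then nucleolin (Ncl, 86.6 RPKM), followed. The ranges of Nhp2 and Fbl overlapped, at 100.4 to 135 and 91.6 to 127 RPKM, while Nhp2 was above Fbl in every Bap1flox preOC library. Wdr12, a partner of Bop1 and Pes1 in large subunit assembly, was lowest in Bap1flox preOCs at a median of 3.20 RPKM. Its range of 2.78 to 3.87 RPKM overlapped that of Rrp1b at 2.89 to 4.50 RPKM, while it was below Rrp1b in every Bap1flox preOC library. Myc had the largest move in this order in Bap1flox. It ranked 30th of 50 in Bap1flox BMMs (median 7.05 RPKM) and 6th in Bap1flox preOCs (62.1 RPKM). In Bap1LysM it ranked 26th in BMMs (9.36 RPKM) and 14th in preOCs (26.8 RPKM).

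Myc is on chromosome 15 (chr15:61985391-61990374, plus strand, GRCm38). In Bap1flox BMMs it was at 13.1, 22.7 and 19.5 CPM, and in Bap1LysM BMMs at 25.9, 38.5 and 20.04 CPM. In Bap1flox preOCs it was at 186.7, 189.7 and 190.2 CPM in replicates 1 to 3 and at 152.5, 157.0 and 131.5 CPM in replicates 4 to 6. In Bap1LysM preOCs it was at 104.6 and 140.1 CPM in replicates 1 and 2, and at 74.1, 64.6 and 74.3 CPM in replicates 4 to 6. Every preOC library was above every BMM library. Within each library set every Bap1LysM preOC library was below every Bap1flox preOC library, and across sets Bap1LysM preOC 2 overlapped the lowest Bap1flox library.

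**Figure D1:**
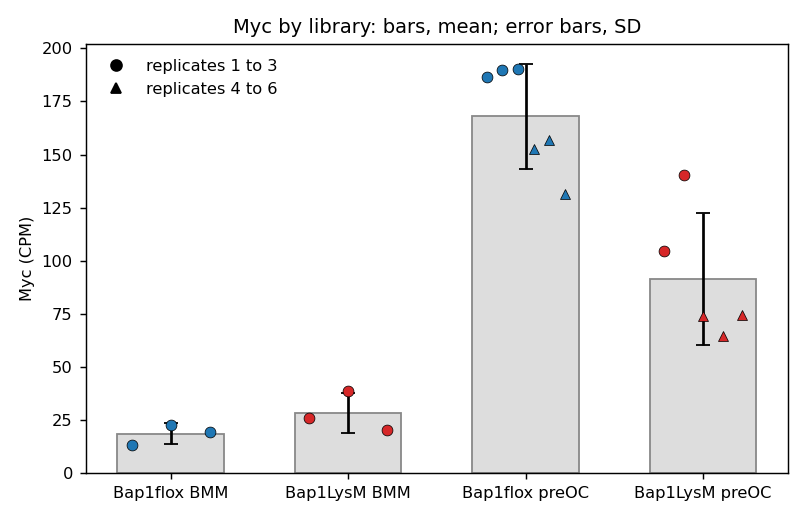
Myc in CPM in each of 17 libraries, by group (points, circles for replicates 1 to 3 and triangles for replicates 4 to 6, red for Bap1LysM and blue for Bap1flox; bars, mean; error bars, SD). Bap1flox preOCs sit between 131.5 and 190.2 CPM and Bap1LysM preOCs between 64.6 and 140.1 CPM.

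The first comparison was the response to RANKL in control cells, between 3 BMM and 3 preOC libraries of Bap1flox in replicates 1 to 3. The whole programme rose. All 50 genes were called higher by edgeR's quasi-likelihood test at an adjusted p below 0.05, where 29.4% of the 13637 genes tested were called higher and 28.7% lower. All 50 also had every preOC library above every BMM library in CPM, against 44.1% of genes tested. The median log2 fold change of the 50 was 1.39 (2.61-fold), against -0.03 over all genes. It was above 1 in 36 genes and above 2 in 9.

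Myc rose the most of the 50 in Bap1flox, by a log2 fold change of 3.18 ± 0.25 (SE), or 9.06-fold (adjusted p = 1.64e-05, edgeR). The snoRNP genes came next as a group, with a median of 2.00 over 9 genes. Dkc1, the pseudouridine synthase of the H/ACA snoRNPs, rose from 7.90, 11.96 and 10.88 CPM in BMMs to 73.9, 68.6 and 68.1 CPM, a log2 fold change of 2.60 ± 0.23. Its partners in the same particle rose less, from 1.31 for Nop10 to 2.04 for Nhp2. Nolc1, a chaperone of snoRNPs, rose by 2.20 ± 0.19, and Nop56 and Nop58, the core proteins of the C/D particles that guide methylation, by 2.00 and 2.04.

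In large subunit assembly the median was 1.31 over 16 genes, from 0.67 for Pes1 to 2.20 for Grwd1, a histone-binding protein of this pathway. Rrs1 (2.07) and Ppan (2.05) were close to Grwd1. The 12 small subunit factors had a median of 1.26. They ran from 0.39 ± 0.07 for Heatr1, the smallest rise of the 50, to 2.00 for Rrp12. The nucleolar proteins of several steps had a median of 1.06, led by the GTPase Gnl3 at 1.86. RNA polymerase I transcription had the lowest median, 0.74 over 7 genes. Its polymerase subunits were unlike each other in this, with 1.78 for Polr1b, 1.73 for Polr1a and 0.42 for Polr1c, which is shared with RNA polymerase III.

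**Figure D2:**
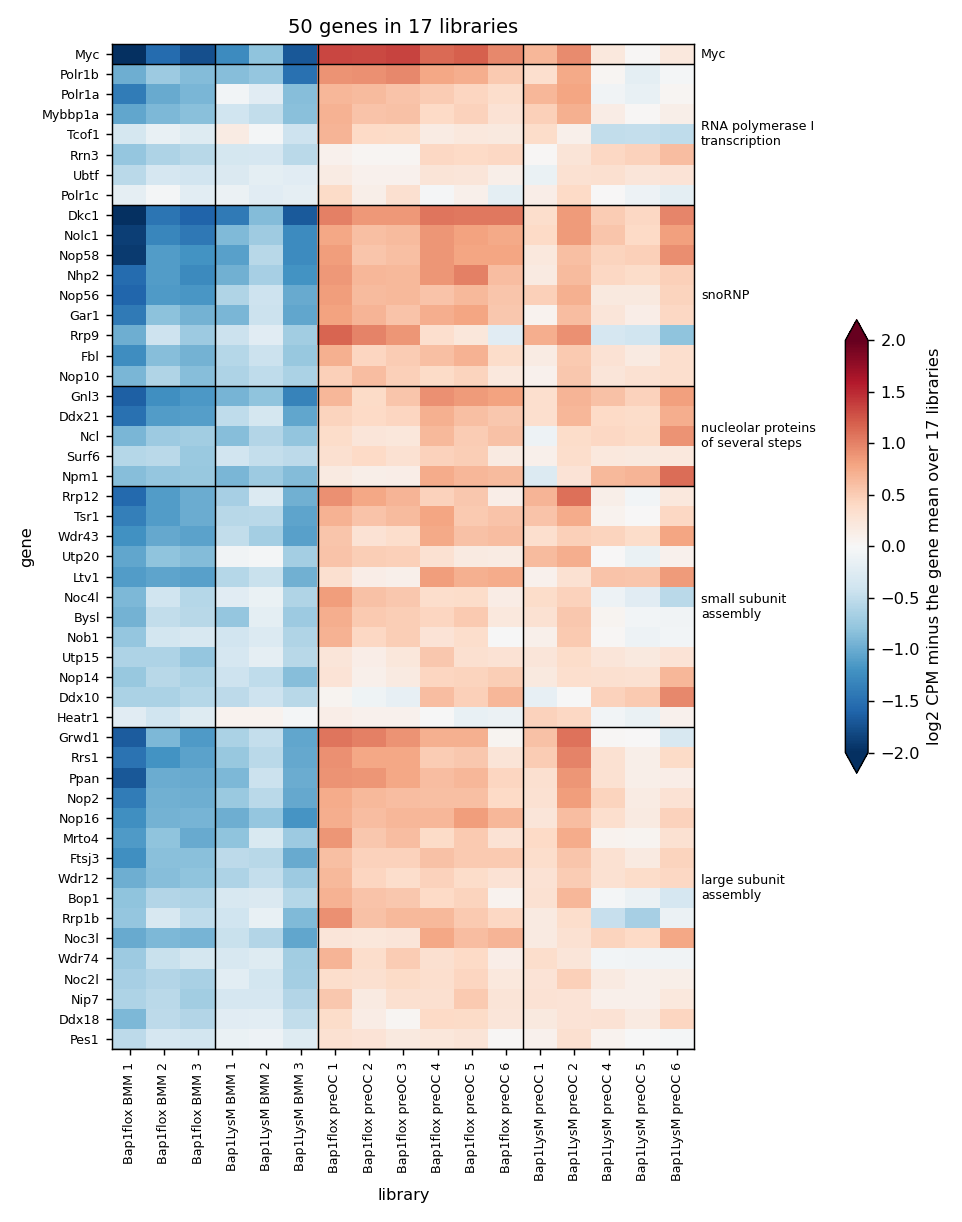
Heat map of log2 CPM of the 50 genes (rows, grouped by role) in 17 libraries (columns, by group), each gene shown relative to its mean over the libraries, with colours cut at -2 and 2. Nearly all genes turn from blue in BMMs to red in preOCs. The mean log2 CPM over the 50 genes was 5.99 to 6.23 in Bap1flox preOCs. It was 5.90 in Bap1LysM preOC 1, 6.17 in Bap1LysM preOC 2 and 5.74 to 5.91 in Bap1LysM preOC 4 to 6. Single genes differ, as Npm1 and Ncl were highest in Bap1LysM preOC 6.

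In Bap1LysM the same comparison used 3 BMM and 2 preOC libraries, and 49 of the 50 genes were called higher, where 21.2% of genes tested were called higher and 17.7% lower (edgeR). All 50 had both preOC libraries above every BMM library in CPM, against 33.2% of genes tested. The median log2 fold change was 0.95 (1.94-fold), against 0.01 over all genes, and 24 genes were above 1. Myc rose by 2.02 ± 0.25, or 4.05-fold (adjusted p = 0.000353). Dkc1 (1.91 ± 0.24), Nolc1 (1.58 ± 0.20), Polr1b (1.57 ± 0.20) and Grwd1 (1.56 ± 0.23) followed. Tcof1, the treacle protein that serves RNA polymerase I in the nucleolus, was the single gene not called, at 0.32 ± 0.17 (adjusted p = 0.158). Without both Bap1LysM libraries numbered 1, an alternative chosen after seeing the data, 48 genes were called higher, where 22.3% of genes tested were, and the median was 1.11. The one Bap1LysM preOC library left was then assumed to vary like the other groups.

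The fitted response was larger in Bap1flox than in Bap1LysM for 47 of the 50 genes, both estimated in the same fit. The difference itself was tested as the interaction of genotype and RANKL over the 11 libraries of replicates 1 to 3. No gene of the 50 was called, and none of the 13637 tested (0% higher and 0% lower, edgeR), while 7 of the 50 had an unadjusted p below 0.05 and DESeq2 and voomWithQualityWeights called none of the 50. The median interaction was -0.38, against 0.04 over all genes. Myc had the value farthest from 0, at -1.16 ± 0.34 (unadjusted p = 0.00713, adjusted p = 0.33). The other 6 were Nop56 (-0.74 ± 0.25), Nhp2 (-0.69 ± 0.25), Polr1a (-0.66 ± 0.28), Fbl (-0.63 ± 0.21), Noc4l (-0.55 ± 0.24) and Pes1 (-0.30 ± 0.13). The highest value, for Polr1c, was 0.02 ± 0.16.

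When all 17 libraries entered a single fit, 16 of the 50 were called lower in the interaction, where 5.32% of genes tested were called lower. These were Myc (-1.40 ± 0.25, adjusted p = 0.00967), Polr1a, Nop56, Rrp1b, Nhp2, Noc4l, Nolc1, Utp20, Tsr1, Fbl, Tcof1, Ddx21, Rrs1, Bop1, Mybbp1a and Pes1. This fit adds replicates 4 to 6, which have no BMM libraries of their own. Without both Bap1LysM libraries numbered 1, the median of the 50 in the interaction over replicates 1 to 3 was -0.25, and 1 gene had an unadjusted p below 0.05. Without Bap1LysM BMM 3 this number was 27 (median -0.48), and without Bap1LysM preOC 2 it was 24 (median -0.51). Leaving out any other single library gave 1 to 12, and none of the 50 was called in these fits.

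**Figure D3:**
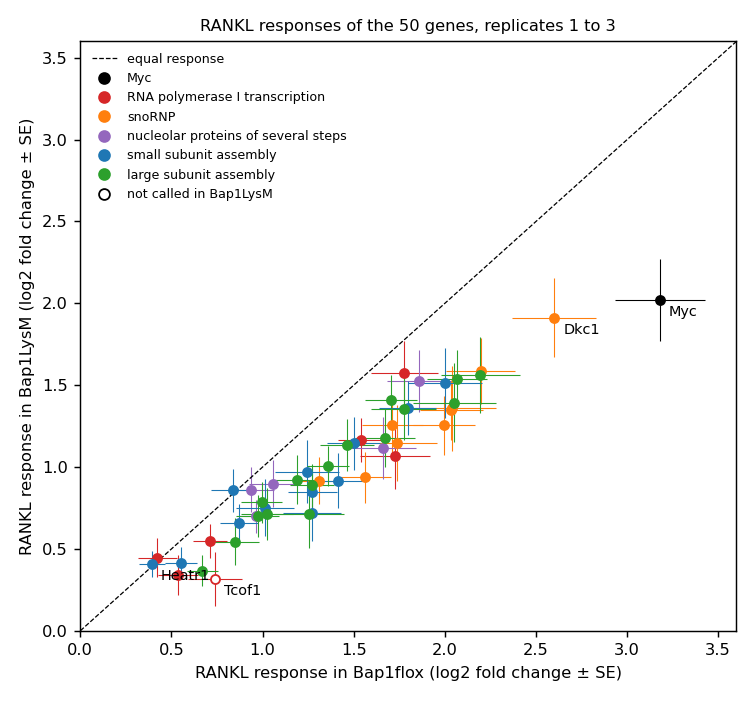
RANKL response of the 50 genes in Bap1flox (horizontal axis) and Bap1LysM (vertical axis), as log2 fold change with SE from replicates 1 to 3, coloured by role, with an open point for Tcof1, which was not called in Bap1LysM. Points below the dashed line, 47 of 50, have a smaller fitted response in Bap1LysM, and Myc, at 3.18 and 2.02, is farthest to the right.

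The second question was whether the genotypes differed before RANKL. Among BMMs 47 of the 50 genes had a positive log2 fold change, Bap1LysM over Bap1flox, with a median of 0.28 against -0.01 over all genes. None was called by edgeR, where 1.31% of genes tested were called higher and 4.01% lower. At an unadjusted p below 0.05 there were 14, and 3 to 28 when a library was left out. The share of all genes at that threshold was not computed. Without Bap1flox BMM 2 or Bap1flox BMM 3, only 7 and 4 of all genes tested were called. DESeq2 called 6 higher (6.75% of all genes tested) and voomWithQualityWeights 1 (5.53% of all). With all 17 libraries in a single fit 12 of the 50 were called higher, where 7.25% of genes tested were. In 13 genes every Bap1LysM library was above every Bap1flox library in CPM, or 26.0% of the 50, against 13.6% of genes tested. Polr1a, the largest RNA polymerase I subunit, had the highest value at 0.74 ± 0.23 (adjusted p = 0.102). Its levels were 17.01, 22.7 and 24.2 CPM in Bap1flox BMMs, and 40.9, 39.6 and 24.9 CPM in Bap1LysM BMMs. The groups did not overlap.

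Myc in BMMs differed by 0.62 ± 0.27 (adjusted p = 0.209). Its ranges overlapped, with Bap1LysM BMM 3 below Bap1flox BMM 2, while in each of the 3 pairs of libraries that share a number the Bap1LysM library was higher. The highest and lowest values by role were Nop56 (0.61 ± 0.19) and Nop10 (0.18) in the snoRNPs, Utp20 (0.65 ± 0.19) and Nob1 (0.04) in small subunit assembly, Grwd1 (0.48) and Nop16 (0.05) in large subunit assembly, and Ddx21 (0.61) and Npm1 (-0.05) among the nucleolar proteins. Polr1b was lowest of all at -0.17 ± 0.21. Bap1LysM BMM 3 was the library most like the controls, with a mean log2 CPM over the 50 genes of 4.78 against 4.53 to 4.84 in Bap1flox, while Bap1LysM BMM 1 and 2 were at 5.07 and 5.20. Without it 4 of the 50 were called higher (2.07% of all genes tested), and without Bap1LysM BMM 1 none was called (0.478% of all higher) and the median was 0.25. All 5 stromal markers tested in BMMs had negative values (median -1.10, none called), with sums of 468 to 2678 CPM in Bap1flox and 334 to 1227 CPM in Bap1LysM. All 8 neutrophil markers had positive values (median 0.60, none called), with sums of 75.9 to 247 CPM and 221 to 306 CPM. Of 2 B and plasma cell markers tested Jchain was called higher (3.07, adjusted p = 0.0221) and Cd79b lower (-1.05, adjusted p = 0.0363). The part of these markers in the values of the 50 genes was not tested.

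The third question was whether the genotypes differed after RANKL. In Bap1LysM preOCs 18 of the 50 genes were called lower and none higher, where 17% of the 12929 genes tested were called lower and 16.6% higher (edgeR, with library set as a term). The share called lower was 36.0% of the 50. The fitted difference was negative in 44 of 50, with a median log2 fold change of -0.19 (0.878-fold) against 0.00 over all genes. In bulk RNA, fewer cells of a type and less RNA per cell cannot be told apart. Values of other gene programmes that moved with this comparison are given further on.

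Myc fell the most of the 50, by 0.79 ± 0.09 on the log2 scale, to 0.578-fold (adjusted p = 0.000195). It was called in each of 11 leave-one-out fits. In RNA polymerase I transcription 2 of 7 genes fell (28.6%, where 17% of all genes tested were called lower). Polr1b, the second largest subunit of the enzyme, fell by 0.60 ± 0.10 (adjusted p = 0.00127). Its levels were 48.3, 49.9, 50.6, 41.4, 40.0 and 33.8 CPM in Bap1flox and 29.1, 42.8, 23.1, 19.4 and 21.9 CPM in Bap1LysM. Only Bap1LysM preOC 2 reached the range of the controls. Tcof1 fell by 0.51 ± 0.10 (adjusted p = 0.00219). The transcription factors of the enzyme had values near 0, with 0.06 ± 0.06 for Rrn3 and 0.01 ± 0.07 for Ubtf.

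Of the 9 snoRNP genes 6 fell (66.7%, where 17% of all genes tested were called lower). Rrp9, the protein that binds the U3 snoRNA, fell by 0.47 ± 0.13 (adjusted p = 0.0196). Gar1 (0.41), Nhp2 (0.40) and Dkc1 (0.39) fell by similar amounts, and all belong to the H/ACA particle. Nop10, its remaining core protein, had a value of -0.15 ± 0.08 (adjusted p = 0.2). Of the C/D core proteins Fbl, the methyltransferase, fell by 0.28 ± 0.08 and Nop56 by 0.25 ± 0.07, while Nop58 was at -0.24 ± 0.10 (adjusted p = 0.0863). Dkc1 levels were 73.9, 68.6, 68.1, 72.6, 70.7 and 69.9 CPM in Bap1flox preOCs, against 42.1, 65.5, 45.2, 42.2 and 63.0 CPM in Bap1LysM preOCs. It was the single gene of the 50 with every Bap1LysM preOC library below every Bap1flox library, against 7.66% of genes tested.

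In large subunit assembly 6 of 16 genes fell (37.5%, where 17% of all genes tested were called lower). Rrp1b, a nucleolar protein, fell by 0.75 ± 0.13 (adjusted p = 0.00123), close to Myc. Its levels were 34.6, 28.2, 29.1, 27.1, 24.6 and 22.2 CPM in Bap1flox preOCs and, in Bap1LysM preOCs, 18.5, 22.9, 11.6, 9.93 and 14.8 CPM, where Bap1LysM preOC 2 was again the one that overlapped. Grwd1 (0.42), Nop16 (0.35), Ppan (0.34), Bop1 (0.34) and Wdr74 (0.32) also fell. Grwd1 was the least stable of the 18 with Nob1, as each kept its call in 3 of 11 leave-one-out fits. In small subunit assembly 3 of 12 genes (25%) fell, which were Noc4l (0.45 ± 0.10), Bysl (0.33 ± 0.08) and the endonuclease Nob1 (0.27 ± 0.09). Heatr1, of the same group, had the highest value of the 50 at 0.15 ± 0.07 (adjusted p = 0.114). None of the 5 nucleolar proteins of several steps was called by edgeR or DESeq2, while voomWithQualityWeights called 2. By edgeR 1 of the 5, Surf6, had an unadjusted p below 0.05 (-0.18 ± 0.07, adjusted p = 0.0654), and Npm1 was at 0.00 ± 0.11.

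**Figure D4:**
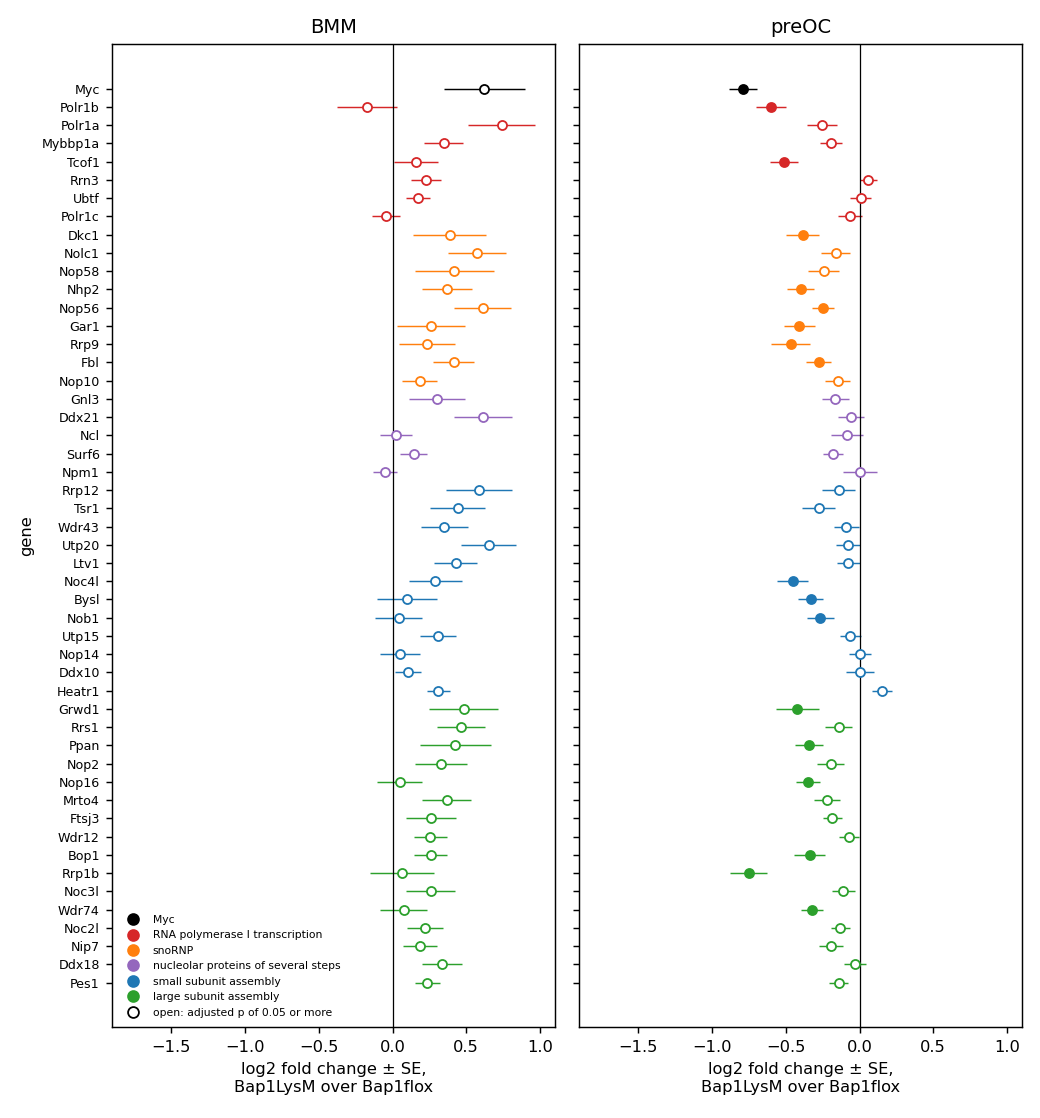
Log2 fold change with SE, Bap1LysM over Bap1flox, of the 50 genes in BMMs (left) and preOCs (right), coloured and ordered by role, filled where the adjusted p of edgeR was below 0.05. In BMMs 47 points lie above 0 with none filled, and in preOCs 44 lie below 0 with 18 filled.

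The preOC comparison was also fitted within each library set. In replicates 4 to 6, fitted alone, 23 of the 50 genes were called lower and none higher, where 18% of genes tested were called lower. There 32 genes, or 64.0% of the 50, had every Bap1LysM library below every Bap1flox library, against 28.7% of genes tested. In replicates 1 to 3, with 2 Bap1LysM libraries, none was called by edgeR and none of all 13611 genes tested. At an unadjusted p below 0.05 there were 4 of the 50, with Myc, Rrp1b and Polr1b lower and Heatr1 higher. The median was -0.27 in replicates 4 to 6 and -0.10 in replicates 1 to 3. Myc differed by -0.99 ± 0.09 in replicates 4 to 6 and by -0.54 ± 0.11 in replicates 1 to 3, Rrp1b by -0.98 and -0.48, and Polr1b by -0.78 and -0.39. All 18 genes called over both sets had a negative value in each, which follows in part from their choice over both sets. Of all 50 genes, 38 had the same sign in each set. The difference between the sets in the genotype effect was tested as an interaction. No gene of the 50 and none of 12929 was called by edgeR, while 9 of the 50 had an unadjusted p below 0.05. Polr1a had the lowest p (-0.61 ± 0.11, unadjusted p = 0.00029, adjusted p = 0.243), with 0.08 in replicates 1 to 3 and -0.53 in replicates 4 to 6. Myc was at -0.45 ± 0.14 (unadjusted p = 0.00855, adjusted p = 0.451).

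The sets differed in level as well, whatever the genotype. Of the 50 genes 24 were lower and 6 higher in replicates 4 to 6, and 6924 of 12929 genes were called between the sets in either direction. Stromal markers summed to 1214 to 2122 CPM in Bap1flox preOCs of replicates 1 to 3 and to 173 to 317 CPM in those of replicates 4 to 6, and in Bap1LysM preOCs to 369 and 1338 CPM and to 94.3 to 423 CPM. The share of mitochondrial counts was 0.48% to 1.07% in replicates 1 to 3, against 2.36% to 5.26% in the later numbers. It also moved with genotype among preOCs. In replicates 1 to 3 it was 0.48% to 1.019% in Bap1flox and 1.021% to 1.07% in Bap1LysM, and in replicates 4 to 6 it was 2.36% to 3.64% and 3.38% to 5.26%. The share of ribosomal RNA in replicates 4 to 6 was 0.137% to 0.209% in Bap1flox and 0.246% to 0.359% in Bap1LysM, with no overlap. The part of these markers and shares in the genotype differences was not tested. Bap1LysM preOC 2 stood closest to the controls. Its mean log2 CPM over the 50 genes was 6.17, within the Bap1flox preOC range of 5.99 to 6.23, while the other 4 Bap1LysM preOC libraries were at 5.74 to 5.91. Without it 32 of the 50 were called lower (18.5% of all genes tested), without Bap1LysM preOC 1 the count was 15 (20.5% of all), and without Bap1flox preOC 5 or Bap1LysM preOC 5 it was 11 (13.3% of all in each). Of the 18 genes 10 were called in all 11 leave-one-out fits, namely Myc, Rrp1b, Polr1b, Tcof1, Noc4l, Gar1, Nhp2, Nop16, Bysl and Wdr74.

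**Figure D5:**
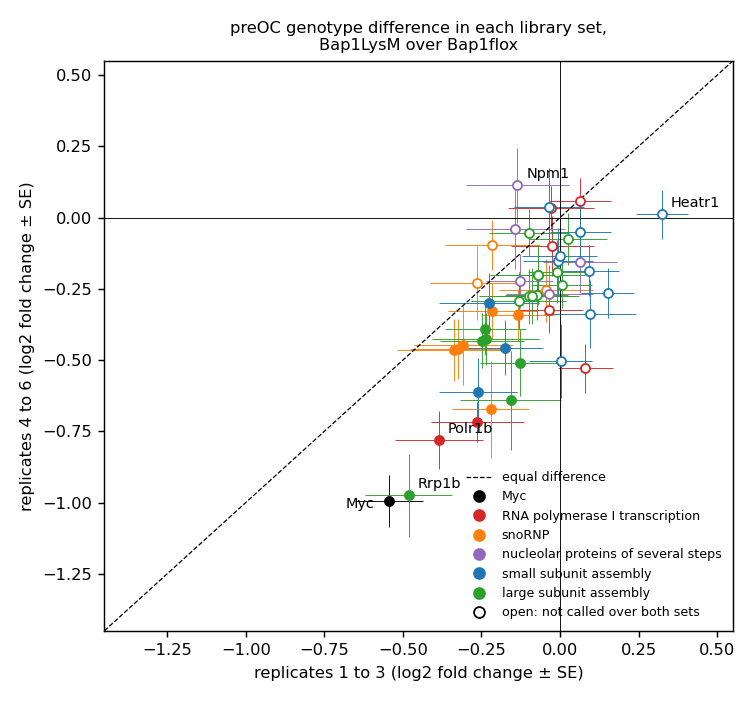
Genotype difference in preOCs, Bap1LysM over Bap1flox, as log2 fold change with SE, in replicates 1 to 3 (horizontal axis) and replicates 4 to 6 (vertical axis), coloured by role and filled where called over both sets. Points below the dashed line, 43 of 50, lie lower in replicates 4 to 6, and Myc is at -0.54 and -0.99.

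E-box holders were set beside the other genes with a promoter entry. Of the 9 genes with CACGTG, 1 was called lower between genotypes (Grwd1), with a median of -0.14, and of the 34 other genes with a promoter entry 13 were called, with a median of -0.19. In the RANKL response of Bap1flox the medians were 1.50 and 1.29. These are descriptions, with no test.

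Other genes of the pathway were read from lists that hold none of the 50. In the RANKL response of Bap1flox, where 29.4% of all genes tested were called higher and 28.7% lower, all 13 RNA exosome genes, which trim pre-rRNA, were called higher (median 0.88), with Dis3 at 1.62. So were 34 of 40 further small subunit factors, 39 of 45 further large subunit factors (2 were lower), 8 of 15 RNA polymerase I partners (2 lower) and 57 of 78 cytosolic ribosomal protein genes. The ribosomal proteins had a median of 0.39 and a highest value of 0.78, for Rpl8. Of 36 Myc targets outside the nucleolus 35 rose, with Srm, the spermidine synthase, at 2.13. In the Myc network 3 of 11 genes were higher and 4 lower (27.3% and 36.4%, median -0.13), near the shares over all genes. Mycl rose by 5.55, while the Max partners Mxd4 (-2.02) and Mnt (-0.91) fell. Of 19 RNA polymerase III genes 8 were higher and 3 lower. In Bap1LysM, where 21.2% of all genes tested were called higher, the counts were 8 of 13 exosome genes, 31 of 40 small and 34 of 45 large subunit factors (1 large subunit factor was lower), 5 of 15 RNA polymerase I partners (1 lower), 6 of 19 RNA polymerase III genes (2 lower), 14 of 78 ribosomal proteins (17.9%) and 28 of 36 Myc targets (1 lower).

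Between genotypes in preOCs fewer of these genes were called, and the lists of further subunit factors lay near the 17% of all genes tested that were called lower. There were 4 of 13 exosome genes lower, 8 of 40 small subunit (20%) and 10 of 45 large subunit factors (22.2%, with 1 higher), 7 of 15 RNA polymerase I partners (1 higher), 6 of 19 RNA polymerase III genes (2 higher), 5 of 79 ribosomal proteins (6.33%) and 14 of 36 Myc targets (38.9%). Among those lower were Polr1e, an RNA polymerase I subunit (-0.83 ± 0.12), and Slc19a1, the folate carrier (-0.77 ± 0.12). In the Myc network 1 of 11 genes, Mxi1, was lower. Among BMMs 1 gene of these lists was called, Utp18, which was higher by 0.55.

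Other programmes moved with the same comparison, where 16.6% of all genes tested were called higher and 17% lower. Of 30 proliferation genes 25 were called lower in Bap1LysM preOCs (median -0.40), with Gins2 at -0.75, and 28 rose with RANKL in Bap1flox (29.4% of all genes) and 1 in Bap1LysM (21.2% of all), with none called in the interaction (median -1.06). In BMMs their median was 0.66, with none called by edgeR. Of 18 targets of the stress-responsive factor p53 7 were called higher and 1 lower in Bap1LysM preOCs, with Eda2r at 1.22, Ccng1 at 0.60 and Cdkn1a at 0.57. All 8 neutrophil markers were called higher, and their summed level ran from 69.5 to 188 CPM in Bap1flox preOCs and from 171 to 592 CPM in Bap1LysM preOCs, with none at 0. Of 6 macrophage markers 3 were called higher, with sums of 3853 to 4421 CPM and 3899 to 5233 CPM. Of 3 dendritic cell markers tested 2 were called higher, Ccr7 by 2.10 and Zbtb46 by 1.06, while the summed list ran from 44.1 to 177 CPM in Bap1flox and from 106 to 151 CPM in Bap1LysM. Of 2 B and plasma cell markers tested Jchain was higher by 4.13, and the sum of that list was 2.11 to 4.32 CPM in Bap1flox and 5.91 to 10.3 CPM in Bap1LysM. Of 10 osteoclast markers 1 was called, Dcstamp, which fell by 0.69, while 8 of the 10 had positive values (median 0.20). Markers of T and NK cells summed to at most 0.57 CPM in any library. The part of these programmes and markers in the fall of the 18 genes was not tested.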

How the data were processed

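Reads of 150 bases were aligned by the authors to GRCm38 with STAR 2.5.1a and counted per gene of Ensembl release 76 with featureCounts 1.4.6-p5 (uniquely aligned, unambiguous reads). The authors deposited raw counts with CPM and RPKM values, which equalled the recomputed ones in every check made. Here 355 ribosomal RNA genes were left out, and 40254 genes (97.26%) had a symbol in GENCODE M21. In that annotation 21 of the 50 genes share exon bases with another gene, and the strand setting was not given in the sources used here.

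Counts were tested with edgeR 4.0.16 in R 4.3.3 (quasi-likelihood, TMM factors, Benjamini-Hochberg over all genes tested, threshold 0.05). Genes needed a CPM above 1 in 4 of 11 preOC libraries, 2 of 6 BMM libraries or 2 of 11 libraries of replicates 1 to 3. Library set was a term in the preOC comparison. Log2 CPM used a prior count of 2. DESeq2 1.42.0, limma 3.58.1 (voomWithQualityWeights), other factors and filters, all libraries in a single fit, a replicate block and each library left out were alternatives. The steps were tested on simulated data.

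The genes, lists, rules and tests were chosen with earlier results of these data known. Named are Myc, genes past the threshold (the 12 largest where there were more), the highest and lowest of each role, and up to 3 genes per list, of which 1 is not reported here. The other names in the all-library interaction and in the fits of 1 library set were chosen after seeing their values. So were Polr1a between the sets, and Rrs1, Ppan, Nolc1 and the H/ACA partners where the rule does not hold them. Within library sets, the departures of libraries that share a number from the means of their groups were correlated. The values were 0.49, 0.30 and 0.34 between BMM genotypes and 0.36, 0.22 and 0.30 between Bap1flox BMMs and preOCs. The highest with another number were -0.29, 0.22 and 0.17, and -0.23, 0.07 and 0.21. These numbers were read as pairing. The main fits hold no term for it, and the replicate block does. In preOCs numbers 4 to 6 gave -0.01, -0.14 and 0.01 and were not read as pairing.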

Additional observations from a re-analysis of the deposited data

Results flagged for a closer look

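With 50 genes and their mean examined in each preOC group, 102 sets of libraries in all, 5 held a library far from the others of its group by Dixon's test, where chance gives about 1 in 20. Ppan was at a log2 CPM of 6.19 in Bap1LysM preOC 2 and at 5.41 to 5.62 in the other 4. Ubtf was at 7.38 in Bap1LysM preOC 1 and at 7.74 to 7.83 in the others. Among Bap1flox preOCs, library 6 was low for Grwd1 (4.65, others 5.29 to 5.65) and Pes1 (6.78, others 6.95 to 7.06), and library 1 was high for Nop56 (7.05, others 6.76 to 6.86).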

How the results depend on the processing

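In preOCs the count of 18 genes lower in Bap1LysM became 35 with voomWithQualityWeights, where 23.6% of all genes tested were called lower instead of 17%, 7 without the library set term, where 8.68% were, and 0 in replicates 1 to 3 alone (4 at an unadjusted p below 0.05), and ranged from 11 to 32 when a library was left out. With upper-quartile factors it was 25 (21.1% of all genes lower), and 37.2% of the called genes were higher instead of 49.4%. It was 16 with a replicate block (16.9%) and 18 with DESeq2 (17.1%), and with all 17 libraries in a single fit 11 were lower (13.8% of all genes) and 1, Heatr1, was higher. In BMMs the count of 0 became 1 with voomWithQualityWeights (5.53% of all genes higher), 6 with DESeq2 (6.75%), 12 with all 17 libraries in a single fit (7.25%) and 0 to 4 when a library was left out, all higher. With the replicate block it stayed 0, where 5.47% of all genes were called higher and 10.7% lower, and 19 of the 50 had an unadjusted p below 0.05. In the interaction the count of 0 became 16 lower with all 17 libraries, and stayed 0 with the replicate block, where 31 genes had an unadjusted p below 0.05. For the RANKL response the replicate block gave 50 genes higher in Bap1flox (29.7% of all genes) and 44 in Bap1LysM (17.3% of all). Without Bap1LysM preOC 2 the median of the 50 in Bap1LysM was 0.85. In that fit a single library of the group remains and its spread is taken from the other groups. The cause of these shifts was not tested. The median log2 fold changes of the 50 genes moved by less than the SD between libraries in every alternative run, and no named gene called in either fit changed sign.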
